A study of Mus musculus with 26 samples.

Results

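The genes described here encode proteins of the sperm tail. They are genes named for the outer dense fibres (*Odf1*, *Odf2*, *Odf3* and *Odf4*) and genes of the fibrous sheath with its partners (*Akap3*, *Akap4*, *Fsip2*, *Ropn1*, *Cabyr* and *Spa17*). They were found by symbol in the deposited testis expression table, where each of the 10 had a row of its own among 51124 genes, and all 10 passed the filter on low values. RNA-seq was done on total RNA of adult mouse testes depleted of ribosomal RNA, with a library from each of 2 mice for each of 3 genotypes. N1 and N2 came from wild type (WT), N3 and N4 from *10xPerf*, and N5 and N6 from *10xBulge*. Both knock-in lines were made by CRISPR/Cas9 in embryos of the B6D2F1/J hybrid and carry, at the 3′ end of *Ythdc2*, 10 tandem sites for piR-A, a pachytene piRNA, fully complementary in *10xPerf* and with mismatches to the centre of piR-A in *10xBulge*. The study made the mismatched line as a noncleaving control but reported that its sites were also sliced in vivo. It used the RNA-seq to look for changes in gene expression. For *10xBulge* it already reported lower expression of postmeiotic genes and an occasionally smaller litter size. It saw no effect on fertility in any of its homozygous knock-in lines, including *10xBulge*, and kept them by crossing homozygotes. The labels give neither the litters and days of collection nor whether the knock-in alleles were homozygous in the mice sequenced. They also do not say whether the 2 libraries of a genotype came from different mice. The p-values below rest on a spread within genotypes that was estimated from all 6 libraries together, 2 per genotype, and moderated across genes.

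The outer dense fibres are stiff, cysteine-rich cables that run along the axoneme of the sperm tail. The fibrous sheath wraps the fibres and axoneme in the principal piece, where A-kinase anchoring proteins form its scaffold and dock protein kinase A, the cAMP-dependent kinase of sperm motility. Most of the genes for both structures are transcribed late in spermatogenesis, largely in spermatids, and the tail is built as the spermatid elongates. The levels given here are from whole testis, in which fewer cells of a type and less RNA per cell cannot be told apart.

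Normalized counts were fitted as log2(value + 1) with limma over 23782 genes, and a gene was called at a Benjamini-Hochberg adjusted p under 0.1. Libraries held roughly 41.1 to 61.6 M reads, so that 3 reads were worth 2.73 to 3.63 normalized counts, and the lowest value of any of the 10 genes was 76.0 (*Odf3* in N6). Libraries of a genotype correlated across the tested genes with Pearson's r between 0.951 and 0.958, a description over genes that are not independent. Their ratio followed GC content, with Spearman's rho of 0.61 for N1 to N2, -0.24 for N3 to N4 and 0.52 for N5 to N6 over 12426 genes, and the 10 genes span a GC content from 37.3% (*Fsip2*) to 56.8% (*Odf3*). *Ythdc2*, the gene that carries the inserted sites, had 827 and 2412 normalized counts in WT, 1334 and 1136 in *10xPerf*, and 1202 and 2458 in *10xBulge*, so that its libraries overlapped between all genotypes.

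All 10 genes were lower in both *10xBulge* libraries than in any WT or *10xPerf* library. Their log2 fold changes of *10xBulge* against WT ran from -7.33 (*Akap4*) to -1.18 (*Odf4*), with a median of -5.25 beside -0.03 over all genes tested, and all 10 were called lower with limma. Over all genes, 23.0% were called lower in that comparison and 11.4% higher, while 33.2% had both *10xBulge* libraries below both WT libraries. The size of the change was uneven. Means in *10xBulge* were between 0.607% and 3.62% of the WT mean for 6 genes (*Akap4*, *Odf1*, *Odf3*, *Ropn1*, *Akap3* and *Cabyr*) and between 17.1% and 43.6% for the other 4 (*Odf2*, *Spa17*, *Fsip2* and *Odf4*). In *10xPerf*, none of the 10 genes was called against WT.

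**Figure D1:**
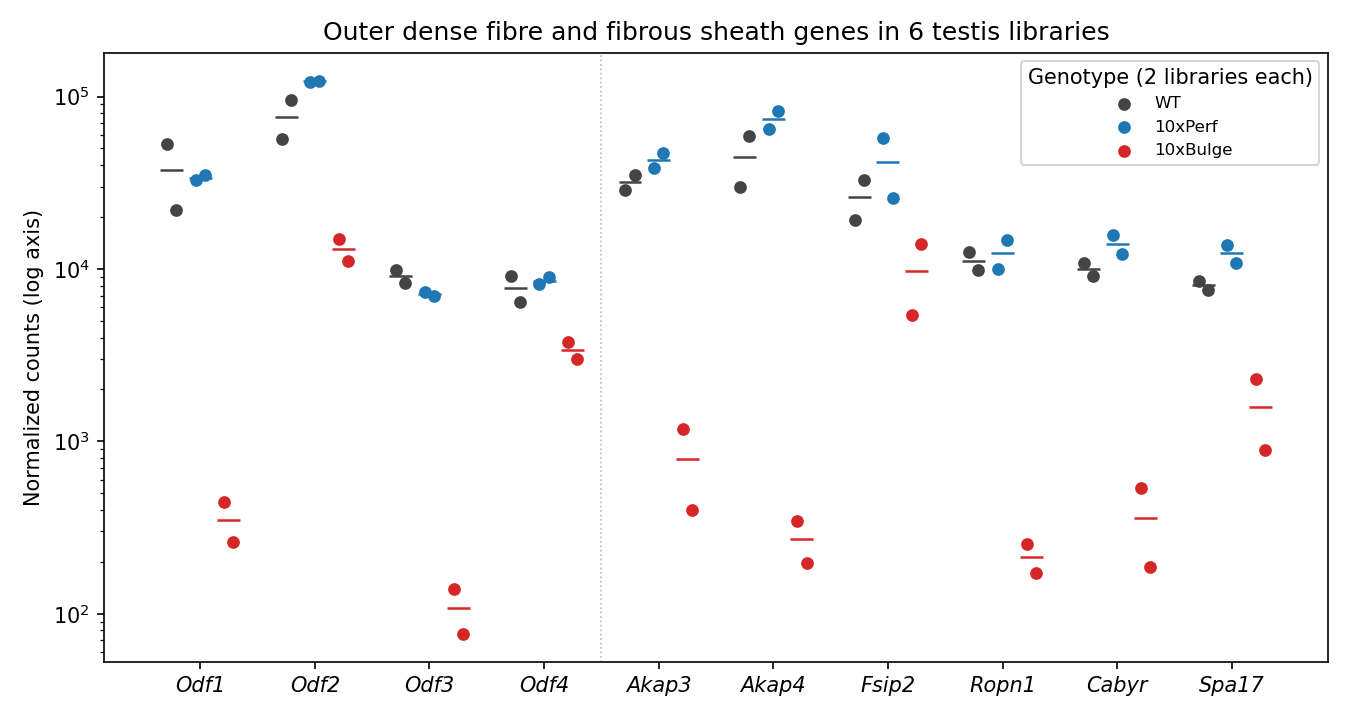
Normalized counts (log axis) of the 10 genes in each of the 6 testis libraries, with points for libraries, short lines for the mean of a genotype and a dotted line between the outer dense fibre genes on the left and the fibrous sheath genes on the right. The *10xBulge* points lie below all others for every gene, by far for *Odf1*, *Odf3*, *Akap3*, *Akap4*, *Ropn1* and *Cabyr*, and close to them for *Odf4* and *Fsip2*.

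Among the outer dense fibre genes, *Odf1* encodes the abundant small heat shock-related protein of the fibres. It lies on chromosome 15 (chr15:38219203-38226735, plus strand, GRCm38). It had 53048 and 22000 normalized counts in WT, 32892 and 34869 in *10xPerf*, and 444 and 260 in *10xBulge*. The WT libraries were farther apart on the log2 scale than for the other 9 genes and enclosed both *10xPerf* libraries, while *10xBulge* stood clear of both. The mean fell from 37524 ± 21955 in WT to 352 ± 130 in *10xBulge* (SD, n = 2 each), which was 0.938% of WT, with a log2 fold change of -6.65 (SE 0.51, adjusted p = 1.73e-05 with limma).

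*Odf2* encodes a coiled-coil fibre protein that also has a form at the centrosome of other cells. It lies at chr2:29889221-29931746 on the plus strand. Its libraries held 56416 and 96148 in WT, 121930 and 123705 in *10xPerf*, and 14936 and 11153 in *10xBulge*. The 3 genotypes did not overlap, with *10xPerf* highest and *10xBulge* lowest. It kept 17.1% of the WT mean in *10xBulge*, with a log2 fold change of -2.51 (SE 0.46, adjusted p = 0.00339).

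*Odf3*, a member of the SHIPPO repeat family, lies at chr7:140847805-140851018 on the plus strand. It had 9852 and 8343 normalized counts in WT, 7364 and 6979 in *10xPerf*, and 140 and 76.0 in *10xBulge*. Libraries of a genotype were close, the *10xPerf* libraries lay just under WT, and *10xBulge* was 84.2-fold lower than WT in the mean. The log2 fold change was -6.44 (SE 0.42, adjusted p = 8.65e-06). *Gm45785*, which lies over it on the opposite strand, held 1.85 to 9.80 normalized counts in all libraries.

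*Odf4*, at chr11:68921835-68927081 on the minus strand, encodes another tail protein of this group and had the smallest log2 fold change of the 10 genes with all libraries, though *Fsip2* changed less without N2 or N5. The libraries held 9133 and 6464 in WT, 8204 and 8937 in *10xPerf*, and 3790 and 3017 in *10xBulge*. The *10xPerf* libraries fell inside the WT range, and the higher *10xBulge* library was below the lower WT library. *Odf4* kept 43.6% of its WT mean, with a log2 fold change of -1.18 (SE 0.40, 95% confidence interval -2.08 to -0.29, adjusted p = 0.0561). This call was lost when N1, N3, N4 or N6 was left out, with an adjusted p of up to 0.211 (without N1), and in a fit of WT and *10xBulge* alone (adjusted p = 0.109).

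Of the fibrous sheath genes, *Akap4*, at chrX:7067519-7078609 on the plus strand, encodes the main anchoring protein of the sheath. Its libraries held 29955 and 59331 normalized counts in WT, 64456 and 83022 in *10xPerf*, and 346 and 196 in *10xBulge*. Both *10xPerf* libraries lay above WT and both *10xBulge* libraries far below. Its mean in *10xBulge* was 0.607% of WT, or 165-fold lower, and its log2 fold change of -7.33 (SE 0.49, adjusted p = 9.39e-06) was the largest of the 10.

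*Akap3*, the anchoring protein that organizes the early sheath, lies at chr6:126853098-126874308 on the plus strand. It had 28841 and 35258 in WT, 38389 and 47046 in *10xPerf*, and 1185 and 398 in *10xBulge*. The libraries followed the same order of genotypes as for *Akap4*, with N5 well above N6. The log2 fold change of *10xBulge* against WT was -5.53 (SE 0.53, adjusted p = 6.12e-05), and it was -4.75 without N6 and -6.32 without N5.

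*Fsip2* encodes a very large sheath protein that binds AKAP4, and lies at chr2:82943634-83008937 on the plus strand. Its libraries held 19305 and 32954 normalized counts in WT, 57500 and 25855 in *10xPerf*, and 5413 and 14002 in *10xBulge*. Libraries of a genotype differed more than for most of the other genes, the *10xPerf* values enclosed the higher WT value, and N6 came near to N1. The mean in *10xBulge* was 37.2% of WT and the log2 fold change -1.53 (SE 0.60, 95% confidence interval -2.89 to -0.18, adjusted p = 0.0926). The call did not hold without N1, N2, N3, N4 or N5, and was lost in 12 of the 17 alternatives, among them equal totals (adjusted p = 0.228), equal upper quartiles (0.107), a filter of 1 in 1 library (0.145), a pseudocount of 0.1 (0.116), a fit of these genotypes alone (0.151) and no mean-variance trend (0.129), while the log2 fold change without N5 was -0.85 and the adjusted p over all alternatives ran from 0.0126 to 0.345.

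*Ropn1*, *Cabyr* and *Spa17* encode proteins of the sheath that carry a domain like the docking domain of the protein kinase A regulatory subunit RII. *Ropn1*, at chr16:34649921-34678618 on the plus strand, had 12472 and 9893 in WT, 9948 and 14776 in *10xPerf*, and 253 and 173 in *10xBulge*. WT and *10xPerf* overlapped, and *10xBulge* kept 1.91% of the WT mean. Its log2 fold change was -5.72 (SE 0.41, adjusted p = 1.36e-05).

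*Cabyr*, a calcium-binding protein phosphorylated on tyrosine as sperm capacitate, had 10843 and 9072 in WT, 15729 and 12210 in *10xPerf*, and 535 and 186 in *10xBulge*. It lies at chr18:12740322-12755260 on the plus strand, on the same chromosome as *Ythdc2*. The *10xPerf* libraries lay above WT, and *10xBulge* held 3.62% of the WT mean. Its log2 fold change was -4.97 (SE 0.52, adjusted p = 9.77e-05), and it was -4.21 without N6 and -5.73 without N5.

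*Spa17*, a sperm surface protein, lies at chr9:37603290-37613722 on the minus strand. The libraries held 8525 and 7581 in WT, 13830 and 10902 in *10xPerf*, and 2287 and 896 in *10xBulge*. The genotypes did not overlap. *Spa17* kept 19.8% of its WT mean, with a log2 fold change of -2.49 (SE 0.49, adjusted p = 0.00518) that was -1.81 without N6 and -3.16 without N5. All of its 10433 bases overlap *Siae* on the opposite strand. The library kit keeps strand, though the sources used here do not say whether the counting used it, and *Siae* itself had 1058 and 649 in WT, 741 and 765 in *10xPerf*, and 1558 and 1085 in *10xBulge*, so it was not lower in *10xBulge*.

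**Figure D2:**
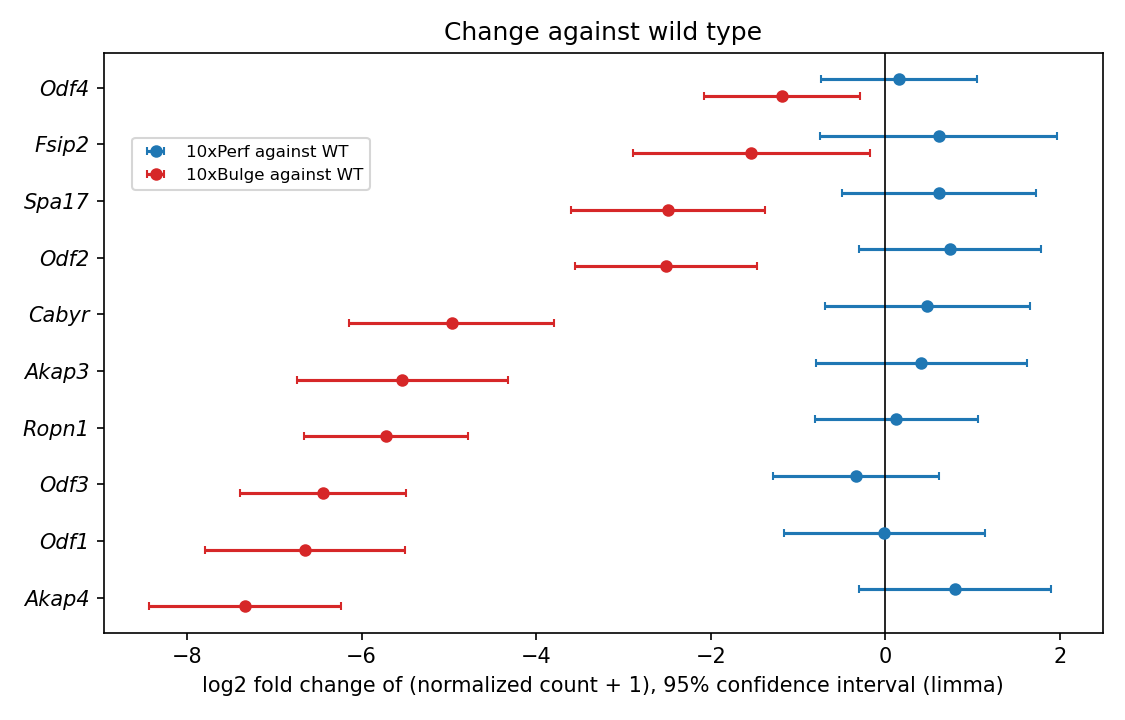
Log2 fold changes against WT of the 10 genes with 95% confidence intervals from limma, for *10xBulge* (red) and *10xPerf* (blue), ordered by the change in *10xBulge*. All 10 *10xBulge* intervals end below 0, from *Akap4* at -7.33 to *Odf4* at -1.18, and all 10 *10xPerf* intervals include 0.

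In *10xPerf* against WT, limma called 0 of the 10 genes. An unadjusted p under 0.05 was found for 0 of the 10, beside 1448 of the 23782 genes tested. Over all genes, 0.467% were called higher and 0.492% lower in that comparison. The fitted log2 fold changes lay between -0.34 (*Odf3*) and 0.80 (*Akap4*), with a median of 0.45 beside 0.02 over all genes, and 8 of the 10 were above 0. Both *10xPerf* libraries were above both WT libraries for 5 genes (*Odf2*, *Akap3*, *Akap4*, *Cabyr* and *Spa17*), as were those of 20.2% of all genes. Both were below WT for *Odf3*, as for 19.8% of all genes, and the libraries overlapped for the other 4. The intervals were wide, from -0.31 to 1.78 for *Odf2* and from -0.30 to 1.89 for *Akap4*, and their upper end was above 1 on the log2 scale for every gene but *Odf3* (0.61).

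In *10xBulge* against *10xPerf*, the same 10 genes were called lower, where 24.1% of all genes were called lower and 12.9% higher, and 35.3% had both *10xBulge* libraries below both *10xPerf* libraries. This comparison shares its *10xBulge* libraries with the comparison against WT, and the comparison of *10xPerf* with WT shares libraries with both. The median log2 fold change was -5.65 beside -0.07 over all genes. Values ran from -8.13 for *Akap4* (adjusted p = 5.59e-06 with limma) to -1.34 for *Odf4* (adjusted p = 0.0332). The log2 fold change was -3.25 for *Odf2*, -3.10 for *Spa17* and -2.15 for *Fsip2* (adjusted p = 0.000653, 0.00132 and 0.0269). Without N3, the calls of *Fsip2* (-1.57, adjusted p = 0.261) and *Odf4* (adjusted p = 0.165) were lost, and that of *Odf4* was also lost without N4 (adjusted p = 0.155).

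The genes also differed in level. Per kilobase of the longest coding transcript of each gene, *Odf1* came first in WT with 33959 ± 19868 normalized counts per kb (SD, n = 2), followed by *Odf2* with 19268 ± 7096, *Akap4* with 14778 ± 6876, *Ropn1* with 12780 ± 2084, *Spa17* with 11032 ± 914 and *Akap3* with 10165 ± 1439. *Odf4* (7235 ± 1751), *Odf3* (6029 ± 707), *Cabyr* (4686 ± 589) and *Fsip2* (1237 ± 457) were lower per kb. Along this order the libraries of neighbours overlapped except between *Akap3* and *Odf4*, *Odf3* and *Cabyr*, and *Cabyr* and *Fsip2*. *Fsip2* has the longest transcript, with 21116 bases, and its place at the end rests on that length.

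In *10xPerf* the order per kb was similar, with *Odf2* (31022 ± 317) and *Odf1* (30661 ± 1265) overlapping at the top, *Akap4* (24409 ± 4346) next and *Fsip2* (1974 ± 1060) last. In *10xBulge* the order changed. *Odf2* (3295 ± 676), *Odf4* (3157 ± 506) and *Spa17* (2180 ± 1347) led and overlapped with their neighbours, and a gap followed, with the lowest *Spa17* library at 1228 per kb and the highest *Fsip2* library at 663 per kb. Below it came *Fsip2* (460 ± 288), *Odf1* (319 ± 118), *Akap3* (251 ± 177), *Ropn1* (244 ± 64.7), *Cabyr* (170 ± 116), *Akap4* (89.8 ± 35.0) and *Odf3* (71.6 ± 29.98), each overlapping with the next. Of the summed level per kb of the 10 genes, *Odf1* made up 28.0% in WT and 3.11% in *10xBulge*, *Akap4* 12.2% and 0.877%, *Odf2* 15.9% and 32.2%, *Odf4* 5.97% and 30.8%, and *Spa17* 9.10% and 21.3%.

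**Figure D3:**
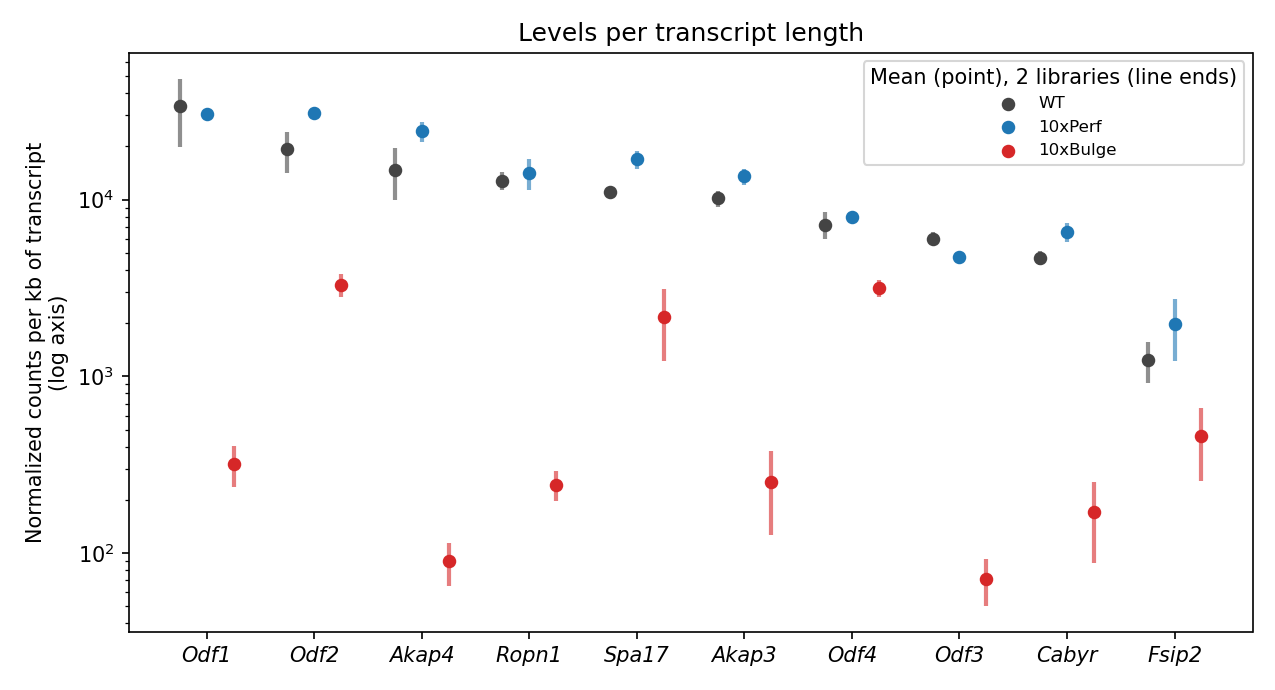
Normalized counts per kb of transcript (log axis) of the 10 genes, ordered by the WT mean, with a point for the mean of a genotype and a line between its 2 libraries. *Odf1* leads in WT at 33959 per kb, while *Odf2*, *Odf4* and *Spa17* stand above the other 7 genes in *10xBulge*, between 2180 and 3295 per kb.

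The libraries of a genotype were also compared for each gene. The share of all genes that differed in each direction was not computed, so the counts that follow only describe the 10 genes. Of the 10 genes, 9 were higher in N5 than in N6 by between 0.33 (*Odf4*) and 1.57 (*Akap3*) on the log2 scale, while *Fsip2* was lower by 1.37 (log2 difference -1.37). *Fsip2* also went against most of the others in WT (-0.77 for N1 minus N2) and *10xPerf* (1.15 for N3 minus N4). The median of 6 spermatocyte markers (*Sycp1*, *Sycp2*, *Sycp3*, *Syce1*, *Hormad1* and *Smc1b*) differed in the same directions, by -1.11, 0.65 and -1.25, and that of 6 spermatid markers by 0.19, 0.07 and 0.80. *Fsip2* also has the lowest GC content of the 10 genes (37.3%). The ratio of these libraries followed GC content, with Spearman's rho of 0.61, -0.24 and 0.52 in the same order. The part of GC content or of cell makeup in the differences of *Fsip2* was not tested. In WT, 6 of the 10 genes were higher in N1, with *Odf1* at 1.27 and *Akap4* at -0.99 as the extremes. In *10xPerf*, 4 of the 10 were higher in N3.

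The lists of cell type markers differed in how they moved between *10xBulge* and WT. All 6 spermatid markers (*Prm1*, *Prm2*, *Tnp1*, *Tnp2*, *Acrv1* and *Spaca1*) were called lower with a median log2 fold change of -10.00. The change was smaller for *Acrv1* (-4.54) and *Spaca1* (-3.48), both less than the median of the 10 genes. The summed level of the 6 spermatid markers was 402100 to 593001 normalized counts in WT and 507 to 825 in *10xBulge*. An unadjusted p under 0.05 with limma was found for 9148 of the 23782 genes tested but for 0 of the 6 spermatocyte markers. None of these 6 markers was called against WT, and their median log2 fold change was -0.48. Their summed level was 19461 to 41738 in WT and 15612 to 30961 in *10xBulge*. Of the somatic markers, 4 of 6 for Sertoli cells (summed level 15018 to 16010 in WT and 28007 to 38885 in *10xBulge*), 3 of 5 for Leydig cells (49463 to 70133 and 135659 to 282868) and 4 of 5 for macrophages (2248 to 2502 and 5353 to 8278) were called higher. Without N6 all 5 Leydig markers were called. Without N1 the Sertoli, Leydig and macrophage calls came to 1, 1 and 2, without N2 the Sertoli and macrophage calls to 1 each, and when any of N3, N4 or N5 was left out at most 2 Sertoli markers were called. For spermatogonia, 1 of 6 was called higher (3 without N6 and 2 without N2), with a median of 0.87. Over all genes, 11.4% were called higher and 23.0% lower in this comparison. No marker was at 0 in any library. In *10xPerf* against WT no marker of any of the 6 lists was called. Of the markers, 0 had an unadjusted p under 0.05, beside 1448 of the 23782 genes tested. In *10xBulge* against *10xPerf*, 2 of the 6 spermatocyte markers were called lower with limma. They were *Syce1* (-1.54, adjusted p = 0.0320) and *Smc1b* (-1.57, adjusted p = 0.0818), and the median of the 6 was -0.93. All 6 spermatid markers were called lower there. Of the others, 5 of 6 Sertoli, 4 of 5 Leydig, 5 of 5 macrophage and 3 of 6 spermatogonia markers were called higher. Over all genes, 24.1% were lower and 12.9% higher. The part of the makeup of the testes in the levels of the 10 genes was not tested.

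**Figure D4:**
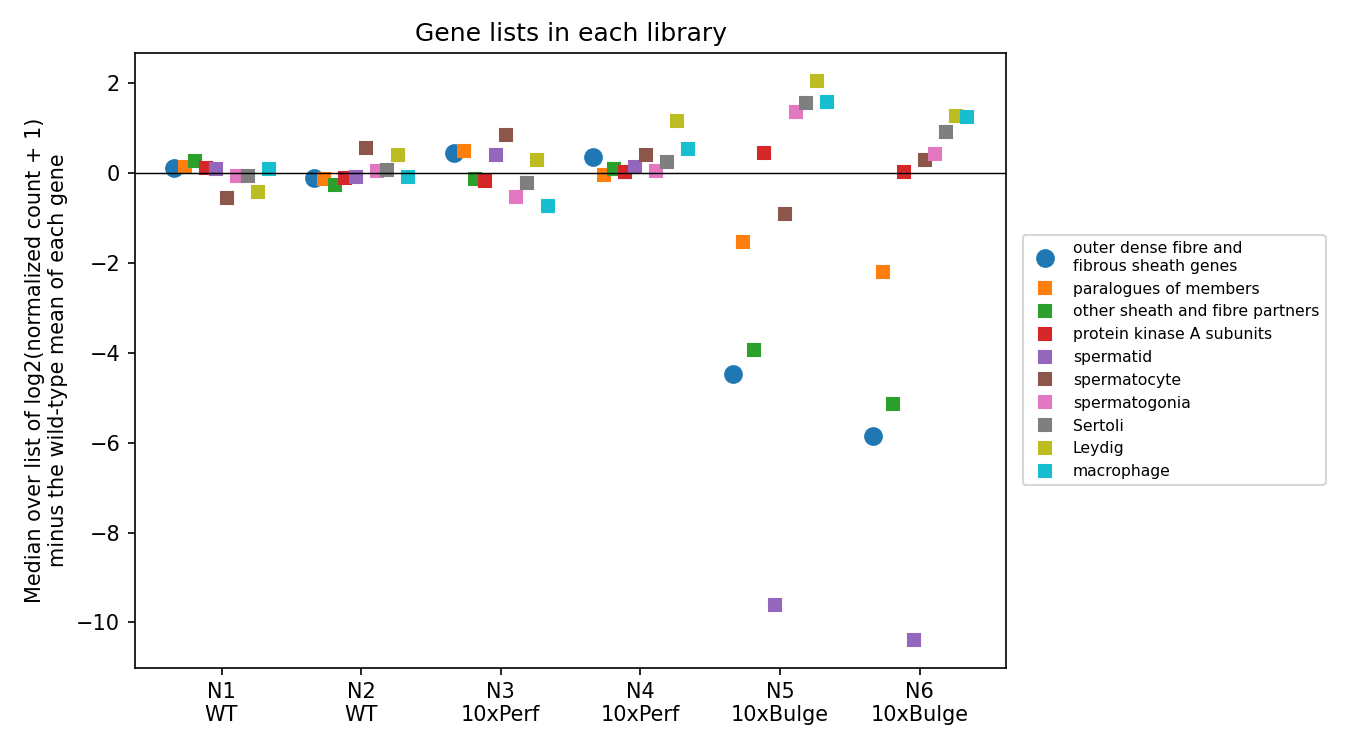
Median over each gene list of log2(normalized count + 1) minus the WT mean of each gene, for the 6 libraries, with a circle for the 10 outer dense fibre and fibrous sheath genes, squares for the other lists and points set side by side within a library. In N5 and N6 the 10 genes lie at -4.48 and -5.86, between the spermatid markers at -9.62 and -10.38 and the spermatocyte markers at -0.91 and 0.29, although 2 spermatid markers, *Acrv1* and *Spaca1*, changed less than the median of the 10 genes.

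The closest relatives and partners of these genes were given the same comparison. Of 6 paralogues (*Odf2l*, *Odf3b*, *Odf3l1*, *Odf3l2*, *Ropn1l* and *Fsip1*), *Odf3l2* was below the filter with a highest value of 1.04. Of the other 5, 4 were called lower in *10xBulge* against WT, beside 23.0% of all genes, with a median log2 fold change of -2.40. *Odf3b* changed most, from 1212 and 555 normalized counts in WT to 3.91 and 5.89 in *10xBulge* (log2 fold change -7.14, adjusted p = 1.20e-05). Its *10xBulge* values were near the worth of 3 reads (2.73 in N5 and 2.90 in N6). Its log2 fold change ran from -7.39 to -5.81 under the alternatives that kept all libraries. *Odf2l*, a relative of *Odf2* found at cilia and centrioles, was not called (0.08, adjusted p = 0.914). *Ropn1l*, named here after its values were seen, had 44086 and 29112 in WT and 18844 and 10631 in *10xBulge*, which is 40.3% of the WT mean where *Ropn1* kept 1.91%. Its log2 fold change of -1.34 was called (adjusted p = 0.0631), but not without N1, N3, N4 or N6.

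Of 9 other tail genes (*Fscb*, *Gapdhs*, *Ldhc*, *Qrich2*, *Spag4*, *Oaz3*, *Tekt4*, *Tssk4* and *Tcp11*), 7 were called lower, beside 23.0% of all genes. Their median log2 fold change was -4.54. *Oaz3*, the antizyme of spermatids, changed most (-7.38, adjusted p = 7.07e-06). The call of *Tekt4* (-2.06, adjusted p = 0.0653), named here after its values were seen, was lost in 8 of the 17 alternatives. Among them were a filter of 1 in 1 library (adjusted p = 0.101), a fit of these genotypes alone (0.165) and no mean-variance trend (0.103). Without N6 its log2 fold change was -0.94. *Ldhc*, the lactate dehydrogenase of germ cells, was not called, with 60853 and 83439 in WT and 79447 and 59873 in *10xBulge* (log2 fold change -0.05, adjusted p = 0.955). *Qrich2*, a tail protein gene, was not called either (-0.80, adjusted p = 0.335), as N5 held 43928 and N6 14150 beside 36820 and 51042 in WT. Without N5 it was called lower (-1.62, adjusted p = 0.0231), and without N6 its log2 fold change was 0.02.

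The subunits of protein kinase A, which the anchoring proteins dock, did not move as a group. *Prkar2a*, the regulatory subunit RII alpha, had 6869 and 7689 in WT, 12381 and 11210 in *10xPerf*, and 544 and 530 in *10xBulge*. Both *10xBulge* libraries were far below every other library, with a log2 fold change against WT of -3.76 (SE 0.37, adjusted p = 6.61e-05). *Prkacb*, a catalytic subunit, was called higher (926 and 968 in WT, 2170 and 2594 in *10xBulge*, log2 fold change 1.32, adjusted p = 0.0280). *Prkar2b*, the regulatory subunit RII beta, was also called higher, from 208 and 369 to 866 and 743 (1.53, adjusted p = 0.0276). Both calls were lost without N1, with an adjusted p of 0.101 for *Prkacb* and 0.160 for *Prkar2b*. *Prkar2b* had 663 and 753 in *10xPerf*, which overlapped *10xBulge* (1.35 against WT, adjusted p = 0.460). *Prkaca* (0.03, adjusted p = 0.964), *Prkar1a* (0.43, adjusted p = 0.506) and *Prkar1b* (-0.996, adjusted p = 0.213) were not called, though *Prkar1b* was called lower without N6 (-1.65, adjusted p = 0.0445). Of the 6 subunits, 1 was thus called lower and 2 higher, beside 23.0% and 11.4% of all genes. The median over the 6 subunits was 0.23.

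In *10xPerf* against WT none of the 20 tested genes of these lists was called. Of them, 1 (*Prkar2b*) had an unadjusted p under 0.05, beside 1448 of the 23782 genes tested. In *10xBulge* against *10xPerf*, which shares its *10xBulge* libraries with the comparison above, 3 of 5 paralogues and 6 of 9 other tail genes were called lower. Of the 6 kinase subunits, 1 was called lower and 1 higher. Over all genes, 24.1% were called lower and 12.9% higher in this comparison.

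The 5 genes outside the group whose profile over the 6 libraries was nearest to the median profile of the 10 genes were *Pmis2*, *Fam221b*, *Adam1a*, *Sh3d21* and *Klhl10*, out of 7767 protein-coding genes with a mean of at least 1000 normalized counts. Their root mean square distance on the log2 scale was 0.17, 0.19, 0.21, 0.22 and 0.22. *Pmis2* had 1947 and 1866 in WT, 2468 and 1812 in *10xPerf*, and 73.5 and 30.5 in *10xBulge*. Of the 10 genes themselves, *Cabyr* was nearest to the median (0.16) and *Odf4* farthest (1.89), followed by *Fsip2* (1.82).

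Promoters were searched because all 10 genes were called lower in *10xBulge*, though to uneven extents. The search was for motifs linked to cAMP-responsive transcription in spermatids and for the TATA box. Whether transcription of the 10 genes changed was not tested. RefSeq windows on GRCm38.p6 from 250 bases before to 50 after each start were at hand for 8 of the 10 genes (13 windows), and none for *Odf1* and *Cabyr*. The cAMP response element TGACGTCA was in 0 of the 13 windows, beside 1.79% of 32851 windows of all genes. TATAAA, searched on both strands as the others were, was also in 0 of 13, beside 13.6%. The shorter motif TGACG, which the full element contains, was in 3 windows of 2 genes, *Odf2* and *Fsip2*, beside 20.8% of all windows. Both *Odf2* windows with the motif overlap and hold the same pair of matches. The matches are shown on the strand of the gene with the motif in capitals, which reads CGTCA in *Fsip2* because the match is on the other strand.
*Odf2* chr2:29889609-29889631: gtgtctcccTGACGacggggcgg
*Odf2* chr2:29889684-29889706: gcatctctgTGACGctgggggct
*Fsip2* chr2:82943505-82943527: gattgaggtCGTCAtagtccgag
The windows were described only, and a match is not a binding site.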

How the data were processed

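The authors assigned single-end reads of total testis RNA to GRCm39 with Ensembl release 104 transcripts using salmon with GC correction, and deposited normalized counts from DESeq2, a signal per gene and library. Only 19.4% of the 34847 genes above 0 were whole multiples of the library's step in every library (tolerance 0.01 of a read), so reads were not recovered and no count test was run. The log2 fold changes of the authors' own comparisons from DESeq2, and the adjusted p-values that go with them, are also in the table and were not used. The immunoprecipitation libraries were not analysed here.

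A gene was tested if 2 or more libraries reached 10 normalized counts (23782 genes). The linear model had limma 3.58.1 (R 4.3.3) estimate a mean for each genotype from log2(value + 1), using all 6 libraries and a mean-variance trend. P-values were adjusted over all tested genes by the Benjamini-Hochberg method, and the threshold of 0.1 is the study's. Fold changes on this scale understate those of low genes. The smallest p of an exact permutation test of 2 against 2 libraries is 0.33, so single values were not tested that way. Loci, transcript lengths and GC content are from GENCODE M21 on GRCm38 and were not mixed with positions on GRCm39. The RefSeq promoter table supplied the windows. The reads were counted by the authors, and depth was approximated as the sum of a library divided by its step. The worth of 3 reads covers counting error only.

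The 10 genes, the other lists and the tests were chosen with earlier results of these data known. All 10 genes are named, and of each companion list the genes with the largest and smallest change of *10xBulge* against WT and those not called lower there. The nearest genes are the 5 with the smallest root mean square distance to the median centred profile. Alternatives were 3 other scalings, 2 other filters, pseudocounts of 0.1 and 10, a fit of the 2 genotypes compared, no mean-variance trend, a threshold of 0.05, removal of a loess GC trend (span 0.3), and leaving out each library. The remaining steps used Python 3.11.15 with pandas 2.3.3, and plots were drawn with matplotlib 3.10.9.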

Additional observations from a re-analysis of the deposited data

How the results depend on the processing

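No paired analysis was possible because the labels give the libraries of the genotypes different numbers (N1 to N6). With 2 libraries per genotype, a library left alone is assumed to vary like those of the other genotypes. In *10xBulge* against WT, 8 to 10 of the 10 genes were called lower under the 17 alternatives (8 or 9 with a library left out), only the calls of *Odf4* and *Fsip2* were lost, and the median was -5.39 to -4.87 (-5.86 to -4.48 with a library left out). Against *10xPerf*, 8 to 10 were called, with a median of -6.17 to -4.93 with a library left out.

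Against WT, *Odf1* in *10xPerf* turned from -0.01 to 0.12 with equal library totals and 0.050 without the GC trend, and lay between -0.65 and 0.62 when single libraries were omitted. *Ropn1* turned to -0.071 without the GC trend (-0.16 to 0.41 with a library left out), and *Odf4* ranged from -0.093 to 0.41. In *10xBulge* against WT, *Ldhc* turned to 0.34 with equal totals and 0.034 without the GC trend, *Odf2l* to -0.055 and *Prkaca* to -0.11 with equal upper quartiles. With a library left out, *Ldhc* ranged from -0.27 to 0.18, *Odf2l* from -0.45 to 0.62, *Prkaca* from -0.27 to 0.34 and *Qrich2* from -1.62 to 0.019. None of these was called in the fit described. The cause was not tested.

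Over all genes, the 111 higher and 117 lower calls of *10xPerf* against WT became 72 and 76 (equal totals), 44 and 53 (filter of 10 in every library), 40 and 65 (pseudocount 0.1), 214 and 190 (only these genotypes), 63 and 72 (threshold 0.05), and 3 to 220 and 15 to 199 with a library left out. The 2712 higher calls of *10xBulge* against WT became 5789 (equal totals), 1512 (only these genotypes), 1370 (threshold 0.05), 4729 (GC trend removed) and 659 to 2933 with a library left out (659 without N1), and the 5466 lower calls became 2926 with the filter of 10 in every library, which tests fewer genes. Against *10xPerf*, the 3077 higher calls became 5122 (equal totals), 1725 (threshold 0.05), 4989 (GC trend removed) and 454 to 3351 with a library left out, and the 5729 lower calls 3064 (filter of 10 in every library) and 3704 to 5854 (lowest without N3). Equal totals moved the median of all genes in *10xBulge* against WT from -0.03 to 0.36. The higher and lower calls of that comparison were then 5789 and 4745 in place of 2712 and 5466, and 4729 and 5784 without the GC trend. Against *10xPerf* they were 5122 and 5159 with equal totals and 4989 and 5864 without the GC trend, in place of 3077 and 5729.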
